A study of Mus musculus with 8 samples.

Results

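The heat shock proteins and chaperones described here are 10 genes: Hspb1, Hspa1a, Hspa1b, Hspa5, Hspa8, Hsph1, Hsp90aa1, Hsp90ab1, Dnajb1 and the transcription factor gene Hsf1. They were found by gene symbol among 24421 symbols counted in 8 bulk RNA-seq libraries of mouse skin keratinocytes, and all 10 passed the filter on low counts. Chaperones bind unfolded or partly folded proteins and let them fold, hold them soluble or pass them to degradation. Small heat shock proteins hold, HSP70 proteins bind and release with ATP, HSP40 (J-domain) proteins deliver clients to HSP70, and HSP90 proteins finish the folding of kinases and receptors. HSF1 switches on the inducible members when unfolded proteins accumulate. In epidermis the small heat shock protein HSPB1 is most abundant in the differentiating layers above the basal layer. Nuclear HMGB1 has been reported to control the HSPB1 gene. The direction of that control was not at hand, and whether the Hspb1 values below match it was not tested.

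Both groups carried the InvEE transgene, an activated MEK1 kinase driven by the involucrin promoter and therefore made in differentiating keratinocytes, and both carried floxed HMGB1 alleles (HMGB1 fl/fl) on a CBA x C57Bl/6J background. The 4 control libraries were K5 Cre- and the 4 knockout libraries K5 Cre+, a Cre active in basal keratinocytes and their descendants. Cre and the loss of Hmgb1 cannot be told apart, since no group carried Cre without floxed alleles. Age, sex and the way the cells were separated are not given in the sources used here, nor whether each library is 1 animal, and the p-values thus rest on differences among libraries that may be technical. Libraries held 30506676 to 34229030 counts on genes. Hmgb1, the targeted gene, was at 565.5 to 615 CPM (counts divided by library depth after TMM scaling between libraries) in controls and 113.4 to 126.2 CPM in knockouts. Y-linked transcripts passed 1000 counts in control replicates 2 and 3 and knockout replicate 1 only, so the sexes were unevenly spread. The keratinocyte label held: Krt5 was at 23790 ± 2050 CPM in control libraries and 24210 ± 1980 CPM in knockout libraries (SD, n = 4 each). The summed markers of fibroblasts, endothelium, immune cells, melanocytes and muscle were each at most 50.82 CPM in every library. Of the tested markers of these other cell types, 1 of 4 for fibroblasts rose (Dcn) and 1 of 4 for melanocytes fell (Kit), while 0 of 1 for endothelium and 0 of 6 for immune cells passed and no muscle marker was tested; their part in the results below was not tested.

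Hspb1 was the 1 member that passed the test between the genotypes, and it was higher in knockouts. Its level was 608.8, 708, 519.8 and 594.1 CPM in control replicates 1 to 4 and at 1057, 1023, 909.3 and 870.8 CPM in knockout replicates 1 to 4. Every knockout library lay above every control library. The mean rose from 607.7 ± 77.4 to 965.2 ± 89.2 CPM (SD, n = 4 each). The fitted log2 fold change was 0.67 (SE 0.117, 95% interval 0.409 to 0.926, or 1.33-fold to 1.9-fold; edgeR quasi-likelihood test, adjusted p = 0.008833; exact two-sided permutation p = 0.0286, the smallest this design allows). Of the 10 members, 1 was called higher and 0 lower, against 4.33% of all 13016 tested genes called higher, 4.54% lower and 8.87% in either direction. The same 1 member had groups that did not overlap, against 17% of tested genes. Among members, the median log2 fold change was 0.026, beside -0.022 over all tested genes, and 5 members had a value above 0 and 5 below.

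**Figure D1:**
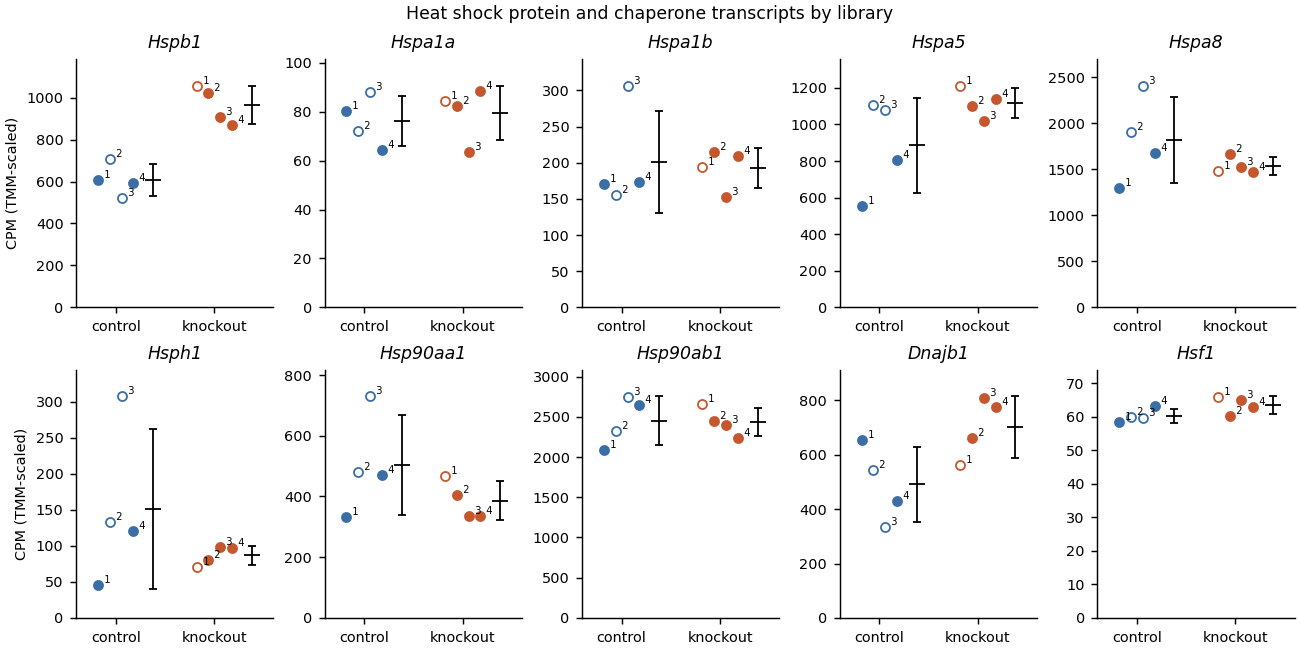
CPM of each member by library. Points are libraries with their replicate numbers (open points hold Y-linked transcripts), and the black bar beside each group is its mean ± SD (n = 4). For Hspb1 the 4 knockout libraries (870.8 to 1057 CPM) sit above the 4 controls (519.8 to 708 CPM), while the groups overlap for the other 9 genes.

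Hspb1 lies on chromosome 5 of GRCm38 (mm10), from 135887919 to 135889563 on the plus strand, and overlaps no other annotated gene. It is 13.2 Mb from the annotated span of Hmgb1, and the part of this distance in the Hspb1 values was not tested. The 250 bases before its start (RefSeq, GRCm38.p6, plus strand, chr5:135887669-135887918) are printed because the shared promoter element of heat shock genes is the point on which the members can be compared. Capitals mark matches to GAANNTTC or TTCNNGAA, a pair of inverted heat shock units searched on both strands. The windows of Hspa1a (chr17:34972157-34972406) and Hspa1b (chr17:34959239-34959488), both on the minus strand, follow for comparison, all 5′ to 3′.
Hspb1: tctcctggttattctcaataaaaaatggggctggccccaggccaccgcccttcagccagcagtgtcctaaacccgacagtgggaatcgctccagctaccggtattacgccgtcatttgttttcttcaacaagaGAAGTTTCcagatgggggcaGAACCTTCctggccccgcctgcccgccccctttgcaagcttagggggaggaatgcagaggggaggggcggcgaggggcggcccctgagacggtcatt
Hspa1a: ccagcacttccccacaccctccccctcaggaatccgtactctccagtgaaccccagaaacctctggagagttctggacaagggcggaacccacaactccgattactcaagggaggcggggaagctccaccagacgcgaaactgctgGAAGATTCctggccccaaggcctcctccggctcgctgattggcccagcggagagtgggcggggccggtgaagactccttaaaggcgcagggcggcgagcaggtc
Hspa1b: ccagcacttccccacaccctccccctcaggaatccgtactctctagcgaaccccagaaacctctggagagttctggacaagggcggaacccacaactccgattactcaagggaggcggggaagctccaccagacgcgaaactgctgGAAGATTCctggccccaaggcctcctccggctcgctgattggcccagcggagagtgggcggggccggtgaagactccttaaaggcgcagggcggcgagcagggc
Hspb1 had 2 such matches, GAAGTTTC starting 117 bases and GAACCTTC starting 97 bases before its start. Hspa1a and Hspa1b each had 1, GAAGATTC, starting 104 bases before. RefSeq windows were at hand for 6 of the 10 members, and 4 of the 6 (Hspb1, Hspa1a, Hspa1b and Hsph1) held a match. The share over 27025 genes with windows of this length was 14.5% (12.8% of all 32851 windows). The members were chosen as heat shock genes, and the Hspa1a and Hspa1b windows are 98.8% identical. The comparison is therefore a description and not a test. The longer form, in which another unit (GAA or TTC, in alternation) follows after 2 bases and which contains the shorter one, was in 0 of the 6 and in 0.466% of all windows. Of the 4 genes whose windows held a match, Hspb1 alone passed the test between genotypes.

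Of 8 tested markers of differentiating (suprabasal) keratinocytes, 2 rose (Krt10 and Sbsn), 0 fell and 6 did not pass. Of all tested genes, 4.33% were called higher. Summed over the list, they were at 8272 to 13110 CPM in controls and 13940 to 17920 CPM in knockouts, ranges that did not overlap. Krt10, a keratin of the first suprabasal layers, rose from 5094 ± 1270 to 9022 ± 1300 CPM (SD, n = 4 each, edgeR adjusted p = 0.01693). It made up a large part of the summed markers, whose means were 10220 CPM in controls and 15720 CPM in knockouts. Of 6 basal markers, 0 passed, and their sum was at 44410 to 53360 CPM in controls and 45560 to 55210 CPM in knockouts. In bulk RNA, more cells of a type and more RNA per cell cannot be told apart, and the part of differentiation in the rise of Hspb1 was not tested. Among the 5 libraries lacking Y-linked transcripts (2 controls and 3 knockouts), the log2 fold changes were 0.636 for Hspb1 (edgeR adjusted p = 0.03861), 0.71 for Krt10 (adjusted p = 0.1205) and 0.76 for Sbsn (adjusted p = 0.203). Krt10 lost its call also without control replicate 2 and without knockout replicate 2.

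**Figure D2:**
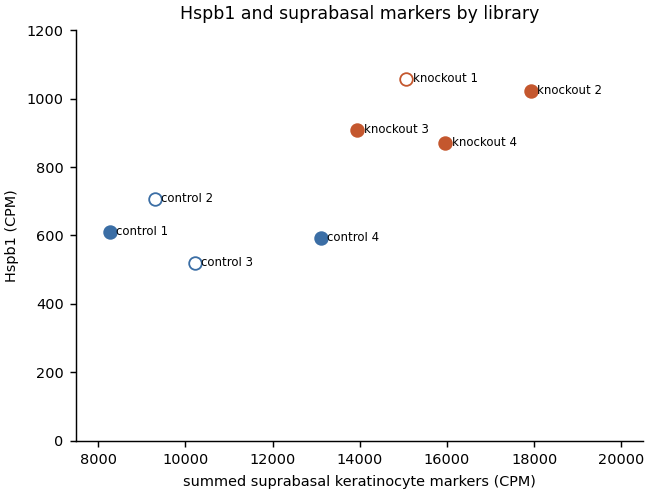
Hspb1 (CPM, vertical axis from 0) against the summed suprabasal markers (CPM, horizontal axis not starting at 0) in each library, with open points for libraries that hold Y-linked transcripts. Knockouts lie above controls on both axes, from 13940 CPM of markers against at most 13110 CPM in controls. Within controls, Hspb1 was at 608.8 CPM at the lowest marker sum (replicate 1, 8272 CPM) and 594.1 CPM at the highest (replicate 4). Within knockouts, it was at 909.3 CPM at the lowest sum (replicate 3) and 1023 CPM at the highest (replicate 2, 17920 CPM).

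Other small heat shock proteins were mostly scarce. Of 9 listed, 5 passed the filter, and edgeR called 0 of them (1 had an unadjusted p under 0.05, beside 26.2% of all tested genes). Hspb8, which works with the co-chaperone BAG3 in clearing damaged proteins, was at 216.9, 255.2, 191.2 and 260.4 CPM in control replicates 1 to 4 and 298.4, 320.5, 273.5 and 285.8 CPM in knockout replicates 1 to 4. These groups did not overlap, but the test was not passed (log2 fold change 0.35, edgeR adjusted p = 0.07791), and DESeq2 did call Hspb8. Hspb11, whose place in this list rests on its symbol, was at 6.527 ± 0.455 CPM in control libraries and 7.187 ± 1.34 CPM in knockout libraries (SD, n = 4 each). Cryab, an abundant chaperone of muscle and lens, was at 3.834 ± 0.842 CPM in control libraries and 2.864 ± 0.721 CPM in knockout libraries (SD, n = 4 each).

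The HSP70 members did not separate the genotypes. Hspa8, the constitutive HSP70 that also uncoats clathrin vesicles, was at 1293, 1906, 2408 and 1672 CPM in control replicates 1 to 4 and at 1476, 1668, 1530 and 1466 CPM in knockout replicates 1 to 4. All 4 knockouts lay inside the control range (log2 fold change -0.25, 95% interval -0.61 to 0.119, edgeR adjusted p = 0.379; -0.0807 without control replicate 3 and -0.378 without control replicate 1). Hspa5, the HSP70 of the endoplasmic reticulum also called BiP, was at 553.2, 1106, 1077 and 804.3 CPM in controls, against 1212, 1099, 1018 and 1140 CPM in knockouts. Its low values were control replicates 1 and 4, and the other 2 controls overlapped the knockouts (log2 fold change 0.34, 95% interval -0.092 to 0.764, adjusted p = 0.3031). That value was 0.166 without control replicate 1 and 0.678 among the 5 libraries lacking Y-linked transcripts, neither called (adjusted p = 0.4721 and 0.06747). The window before the start of Hspa5 held 1 match to an endoplasmic reticulum stress element (CCAAT, then any 9 bases, then CCACG, searched on both strands and containing the CCAAT box), which stood in 0.113% of all windows.
Hspa5: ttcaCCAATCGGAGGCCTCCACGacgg
The capitals mark the match, on the plus strand at chr2:34772025-34772043 (GRCm38.p6), starting 65 bases before the RefSeq start. GENCODE begins Hspa5 earlier, at 34771970, so the match lies inside its annotated span.

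Relative to Hspa8 in the same library, Hspa5 was higher in every knockout. The CPM ratio of Hspa5 to Hspa8 was 0.428, 0.58, 0.447 and 0.481 in control replicates 1 to 4 and 0.821, 0.659, 0.666 and 0.778 in knockout replicates 1 to 4. The mean ratio was 0.484 ± 0.0678 for controls, against 0.731 ± 0.0812 for knockouts (SD, n = 4 each, exact two-sided permutation p = 0.0286, adjusted p = 0.143 over 5 ratios compared). The other 4 ratios, of Hspa1b, Hsph1 and Dnajb1 to Hspa8 and of Hsp90aa1 to Hsp90ab1, overlapped between the groups (exact permutation p = 0.0857 to 0.486, n = 4 each). These ratios were chosen after the levels had been seen.

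Hspa1a and Hspa1b are the heat-inducible HSP70 genes, and they lie side by side in the major histocompatibility region on chromosome 17. Hspa1a was at 80.42, 71.99, 88.13 and 64.43 CPM in control replicates 1 to 4 and 84.24, 82.24, 63.37 and 88.49 CPM in knockout replicates 1 to 4. Hspa1b was at 170.1, 155.2, 306.6 and 173.8 CPM in controls, against 194.7, 215.5, 153.3 and 209 CPM in knockouts. Neither differed between the groups beyond the spread (log2 fold changes 0.06 and -0.06, 95% intervals -0.216 to 0.34 and -0.538 to 0.417, edgeR adjusted p = 0.7936 and 0.8868). Control replicate 3 stood apart for Hspa1b, at 306.6 CPM against 173.8 CPM in the next control, and without it the log2 fold change of Hspa1b was 0.216. The coding sequences of the 2 genes are 99.4% identical, and the promoter windows printed above differ at 3 of 250 positions: C44T, T47C and T249G, with positions counted from the 5′ end of the Hspa1a window and the Hspa1b base last. Hspa1a (34969190 to 34972156) also overlaps Gm20481 on the opposite strand, and strand use in counting is not given in the sources used here. Reads from the pair are therefore hard to place, and each count is uncertain. Hspa1a took 22.3 to 32.1% of the pair's counts. Summed into 1 feature, the pair had a log2 fold change of -0.03 (adjusted p = 0.9431).

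Hsph1, the HSP110 protein that recharges HSP70 with ATP, varied most. Its level was 46.04, 132.7, 307.6 and 120.9 CPM in control replicates 1 to 4 and 70.88, 80.86, 98.52 and 96.73 CPM in knockout replicates 1 to 4. The control range, 6.68 times from lowest to highest, enclosed every knockout. The fitted log2 fold change of -0.81 was not called (95% interval -1.92 to 0.307, edgeR adjusted p = 0.3355), and it was -0.20 without control replicate 3. Hsph1 lies 429.8 kb from the annotated span of Hmgb1 on chromosome 5. Both groups carry the floxed allele, and the part of this distance in the Hsph1 values was not tested. Its promoter match, TTCTCGAA, lies at chr5:149636362-149636369 on the minus strand. That is before the RefSeq start but inside the GENCODE span of Hsph1, which begins at 149636376 on that strand.

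Among 10 other HSP70 and HSP110 genes, 9 were tested, 1 fell, 0 rose and 8 did not pass. The list median was -0.105 on the log2 scale. Hspa12a, a distant relative in the HSP70 family, fell from 10.82 ± 3.03 to 4.603 ± 1.58 CPM (SD, n = 4 each). Controls were at 12.79, 6.966, 13.65 and 9.873 CPM and knockouts at 5.37, 6.384, 3.815 and 2.841 CPM, which did not overlap (log2 fold change -1.23, SE 0.279, edgeR adjusted p = 0.02513). That call was lost in 4 of 8 single-library omissions (without control replicate 1 and without knockout replicates 1, 3 and 4), among the 5 libraries lacking Y-linked transcripts (adjusted p = 0.057) and with the replicate number as a block. Hspa9, the mitochondrial HSP70, was at 346.7 ± 31.3 CPM in control libraries and 322.4 ± 44.4 CPM in knockout libraries, and Hspa4 at 290.8 ± 26.5 and 299.5 ± 37.4 CPM (SD, n = 4 each).

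The cytosolic HSP90 genes overlapped between the groups. Hsp90ab1, the constitutive form, was at 2086, 2328, 2750 and 2646 CPM in control replicates 1 to 4 and 2663, 2445, 2398 and 2231 CPM in knockout replicates 1 to 4, a log2 fold change of -0.01 with a 95% interval of -0.266 to 0.244. Written as folds, that interval runs from 0.832 to 1.18, for this gene alone and before adjustment. Hsp90aa1, the stress-inducible form, was at 333.2, 481.4, 730.1 and 470.1 CPM in controls, against 468.7, 403.6, 337.3 and 336 CPM in knockouts. Again control replicate 3 was the highest and control replicate 1 the lowest of the 8 libraries (log2 fold change -0.38, 95% interval -0.865 to 0.1, edgeR adjusted p = 0.2978; -0.15 without control replicate 3). The coding sequences of the HSP90 pair are 75.3% identical. Of the other HSP90 genes, Hsp90b1 of the endoplasmic reticulum was at 675.8 ± 120 CPM in control libraries and 706.9 ± 30.6 CPM in knockout libraries, and mitochondrial Trap1 at 124.8 ± 9.21 and 115.9 ± 8.54 CPM (SD, n = 4 each). Neither passed the test (adjusted p = 0.788 and 0.479).

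Dnajb1, the HSP40 that delivers clients to the inducible HSP70, had the second-largest positive difference among members. Its level was 653.6, 542.5, 336.2 and 431.3 CPM in control replicates 1 to 4 and 562.9, 660.4, 808.8 and 776.8 CPM in knockout replicates 1 to 4. Of the controls, replicate 1 lay within the knockout range and the other 3 below it. The mean was 490.9 ± 137 CPM in control libraries and 702.2 ± 113 CPM in knockout libraries (SD, n = 4 each). The log2 fold change of 0.52 (95% interval 0.0785 to 0.954, before adjustment) was not called by edgeR (adjusted p = 0.1288, exact two-sided permutation p = 0.0571). DESeq2 called it (adjusted p = 0.04869).

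Of 41 other HSP40 genes, 39 were tested, 1 rose, 1 fell and 37 did not pass. The list median was -0.075 on the log2 scale. Dnajc6, or auxilin, which recruits HSC70 to clathrin coats, was at 3.071, 3.994, 3.05 and 3.593 CPM in control replicates 1 to 4 and 0.3222, 0.3929, 0.2587 and 0.3157 CPM in knockout replicates 1 to 4. The groups lay far apart, 10.5-fold lower in knockouts (edgeR adjusted p = 7.34e-05), and the call held in all 20 alternatives tried. Dnajc6 was scarce, with 8 to 125 counts per library, and the size of that fold rests on few counts in knockouts. Dnajc5, the cysteine-string protein of secretory vesicles, rose from 174.9 ± 7.07 to 238.8 ± 31.9 CPM (SD, n = 4 each, log2 fold change 0.45, adjusted p = 0.02513). It lost that call without control replicate 2, 3 or 4, without knockout replicate 2, and among the 5 libraries lacking Y-linked transcripts (adjusted p = 0.1669). Dnaja1, an abundant HSP40, was at 225.5 ± 83.8 CPM in control libraries and 161.7 ± 16.2 CPM in knockout libraries (SD, n = 4 each, adjusted p = 0.208).

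Hsf1 itself was the steadiest member. Its level was 58.33, 59.88, 59.57 and 63.24 CPM in control replicates 1 to 4 and 65.91, 60.14, 65.08 and 62.86 CPM in knockout replicates 1 to 4. The groups overlapped (log2 fold change 0.08, 95% interval -0.0855 to 0.237, edgeR adjusted p = 0.5514), and the coefficient of variation within controls was 3.48%, in the lowest 3.73% of tested genes. HSF1 is regulated mostly at the protein level, which transcript counts do not read. Of the 3 tested genes among other heat shock factors and regulators, edgeR called 0, and 1 had an unadjusted p under 0.05. Hsbp1, which binds HSF1, was at 50.22 ± 2.18 CPM in control libraries and 50.75 ± 3.4 CPM in knockout libraries, and Hsf2 at 23.42 ± 5.25 and 24.52 ± 3.34 CPM (SD, n = 4 each).

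**Figure D3:**
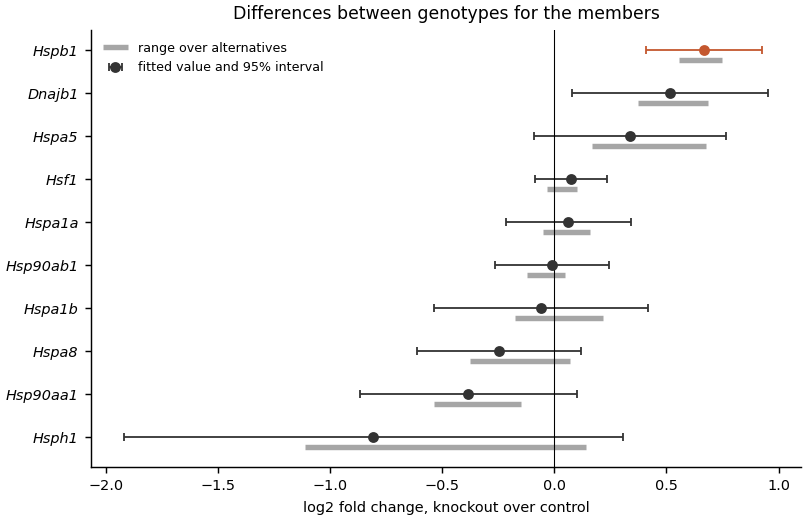
Log2 fold change of each member, knockout over control. Points and bars are the fitted value and its 95% interval (orange where the adjusted p is under 0.05), and the grey bar under each is the range over the alternatives tried. Hspb1 (0.67) is the 1 member past the threshold, and Hsph1 (-0.81) has the widest interval.

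Widely known HSF1 targets outside the members were not called either. Of 20 tested, edgeR called 0 (4 had an unadjusted p under 0.05, beside 26.2% of all tested genes). Limma-voom called 0, limma-voom with quality weights 1 and DESeq2 2. The list median was -0.206 on the log2 scale. Hspb8, given above, was among the 2 most abundant and was called by DESeq2.

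Chaperonins, co-chaperones and the folding enzymes of the endoplasmic reticulum showed 1 call in all. Of 16 chaperonin and prefoldin genes, edgeR called 0 (0 at an unadjusted p under 0.05), and the abundant subunit Cct2 was at 335.4 ± 29 CPM in control libraries and 336.3 ± 32.4 CPM in knockout libraries, with Cct5 at 268.8 ± 19.3 and 261.4 ± 21.8 CPM. Of 25 co-chaperones, 1 rose. Bag1, a nucleotide exchange factor of HSP70, went from 130.8 ± 3.4 to 162.3 ± 14.2 CPM (SD, n = 4 each, log2 fold change 0.31, adjusted p = 0.04765). Its groups did not overlap, but the call held in 6 of 20 alternatives only and in 1 of the 8 fits without 1 library. Bag6 and Unc45a, the most abundant co-chaperones listed, were at 281.6 ± 17.9 and 253.5 ± 35.7 CPM in controls, against 294.1 ± 14.9 and 293.2 ± 33.2 CPM in knockouts. Of 13 endoplasmic reticulum chaperones, edgeR called 0 (2 at an unadjusted p under 0.05). Calr was at 676.7 ± 126 CPM in control libraries and 746.9 ± 45.7 CPM in knockout libraries, and Pdia3 at 617.7 ± 71.3 and 715.1 ± 50.5 CPM (SD, n = 4 each). Over all 112 tested chaperones and co-chaperones outside the members, 2 were higher and 2 lower, against 4.33% and 4.54% of all tested genes.

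**Figure D4:**
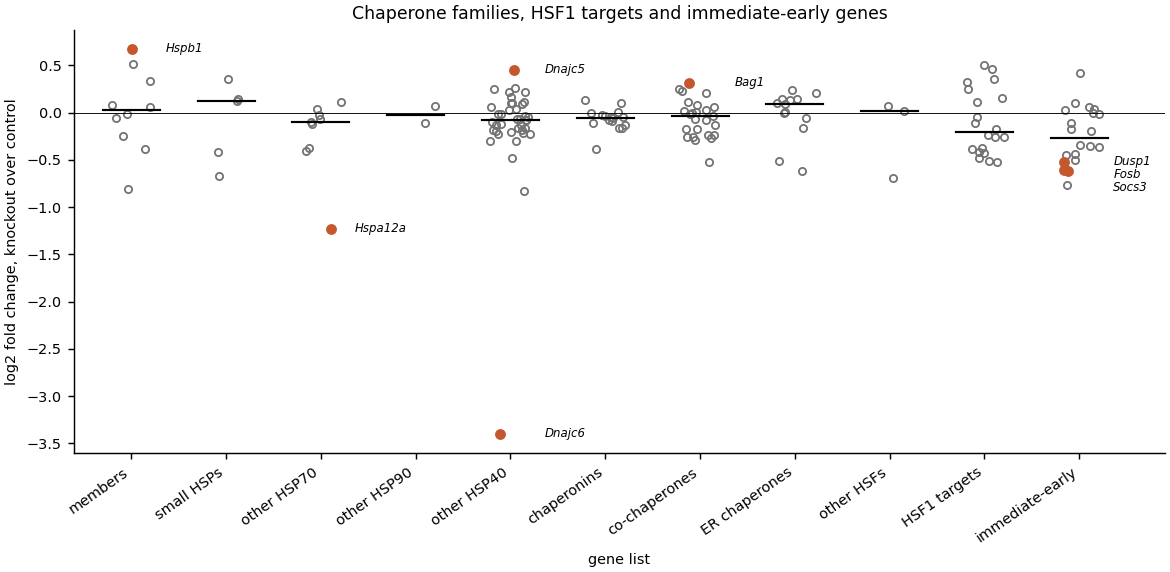
Log2 fold change, knockout over control, of every tested gene in each list. Open points did not pass the edgeR test, orange points did and are named, and black bars are list medians. Most points lie near 0, and Dnajc6 (-3.40) and Hspa12a (-1.23) lie farthest below it among those that passed.

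Immediate-early genes, which respond within minutes to cell separation and other stress, were abundant in all libraries, and 3 of them fell. Of 20 tested, those 3 were Socs3, Dusp1 and Fosb, 0 rose and 17 did not pass, while 4.54% of all tested genes were called lower. The list median was -0.269 on the log2 scale. Socs3, a feedback inhibitor of cytokine receptors, was at 540.6, 403.7, 393.9 and 537.6 CPM in control replicates 1 to 4 and 311.5, 316.2, 308.8 and 285.3 CPM in knockout replicates 1 to 4 (edgeR adjusted p = 0.01445). Its groups did not overlap. Dusp1, a phosphatase that inactivates MAP kinases, was at 1172 ± 126 CPM in control libraries and 817.4 ± 155 CPM in knockout libraries, and Fosb, a subunit of AP-1, at 2747 ± 547 and 1805 ± 305 CPM (SD, n = 4 each, adjusted p = 0.04535 and 0.0497). Both calls were lost in 7 of the 8 fits without 1 library. Atf3 and Nr4a1, which had the highest means over all 8 libraries, were at 2695 ± 940 and 2346 ± 589 CPM in controls, against 2773 ± 610 and 2508 ± 444 CPM in knockouts. The part of these genes in the chaperone values was not tested.

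The members varied more between controls than between knockouts. The SD of log2 CPM was larger in controls for 8 of 10 members (all but Hspa1a and Hsf1), while it was larger in controls for 48.7% of all tested genes. Control replicates 1 and 3 lay at opposite ends. Among controls, replicate 3 was the highest for 6 of 10 members, 13 of 20 HSF1 targets and 29.9% of all tested genes. Control replicate 1 was the lowest for 6 members, 13 HSF1 targets and 27.9% of all tested genes. Both held together for 4 members (40%) and 12 HSF1 targets (60%), against 14.9% of all genes. The 112 tested other chaperones, a list that shares many genes with the HSF1 targets and is thus not independent of them, leaned the same way. Among these other chaperones, replicate 3 was the highest control for 45.5% and replicate 1 the lowest for 60.7%. Both held together for 35.7% of them. Chordc1, Serpinh1 and Dnaja1, each on the lists of HSF1 targets and of other chaperones, were picked after their values were seen. They were at 75.35, 167.7 and 341.1 CPM in control replicate 3, and at 30.46, 64.81 and 151.2 CPM in control replicate 1. Immediate-early genes ran otherwise, with control replicate 3 the highest for 1 of 20 and control replicate 1 the lowest for 0.

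That full order held for 4 of the 10 members, and Dnajb1 and Hspb1 were instead lowest among controls in replicate 3. Dnajb1 was highest among controls in replicate 1 (653.6 CPM) and lowest in replicate 3 (336.2 CPM), the reverse of Hsph1, Hspa8 and both HSP90 genes. Within genotypes, after each genotype's mean of log2 CPM was subtracted, Dnajb1 ran against Hsp90aa1 (Pearson r = -0.947, Spearman rho = -0.833, n = 8; exact permutation p = 0.00694 and 0.0278; r = -0.835 without control replicates 1 and 3) and against Hsp90ab1 (r = -0.942, rho = -0.905, n = 8; exact permutation p = 0.00868 and 0.0208; r = -0.879 without the same 2 libraries). Adjusted over the 45 pairs of members, 0 pairs passed by either measure (adjusted p = 0.195 for both pairs by r and 0.417 by rho). Reads of all genes of a library share its depth and its cells.

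**Figure D5:**
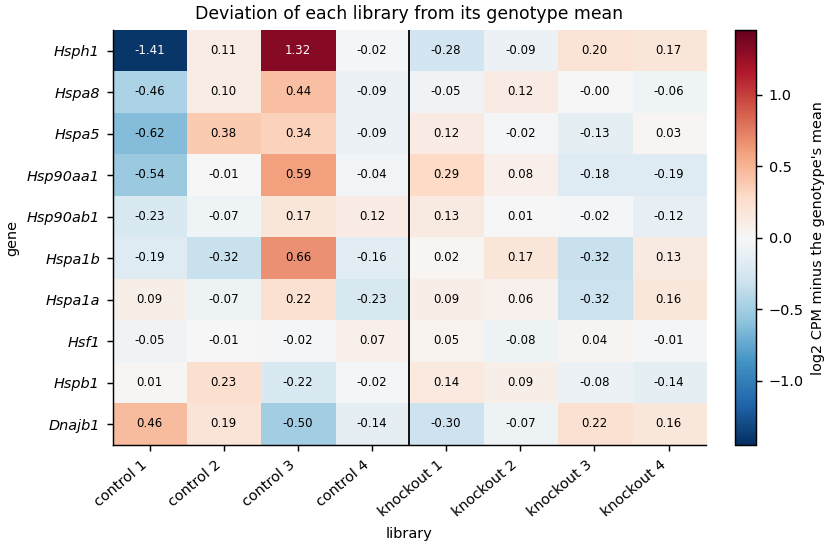
Log2 CPM of each member in each library minus the mean of its genotype. Red is above and blue below that mean, and the line divides the genotypes. Hsph1 spans -1.41 in control 1 to 1.32 in control 3, and Dnajb1 runs the other way in the same libraries.

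Genes outside the members whose pattern was most like a member's were ranked by Pearson r over the 8 libraries after the genotype means were subtracted, among 9167 genes of mean log2 CPM of at least 3, as a description. Most like Hspb1 were Lsm12 (r = 0.979), Arf4 (0.967), Klf16 (0.965), Tmem222 (0.963) and Sde2 (0.959). Of these 5, Sde2 was called higher in knockouts (log2 fold change 0.409, edgeR adjusted p = 0.03636). Most like the mean of Hspa1a, Hspa1b, Hsph1 and Dnajb1 were Cds2 (r = 0.988), Nol11 (0.974), Immt (0.971), Evi5 (0.966) and Hgs (0.964). That mean joins members with unlike patterns: Hsph1 and Dnajb1 had r = -0.685 over the 8 libraries and r = 0.958 without control replicates 1 and 3. Most like Hsph1, a ranking added after its values were seen, were Slc35c1 (r = 0.997), Nadk (0.988), Tmx1 (0.988), Coa5 (0.986) and Smarcd2 (0.984). Their Spearman rho with Hsph1 ran from 0.857 (Coa5) to 0.976 (Slc35c1). For Hsph1, control replicates 1 and 3 lay far from the genotype mean (-1.41 and 1.32) and weigh most in r. Picking the top of 9167 genes over 8 libraries also selects for high r.

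Per kilobase of principal transcript (GENCODE M21), levels were compared between genes. In controls the means ran from Hsp90ab1 at 973 ± 120 CPM per kb through Hspa8 (760 ± 195), Hspb1 (673 ± 85.7), Hspa5 (241 ± 70.7), Dnajb1 (164 ± 45.8), Hsp90aa1 (154 ± 50.4), Hspa1b (71.9 ± 25.2), Hsph1 (39.9 ± 29.1) and Hsf1 (28.9 ± 1.01) to Hspa1a at 25.7 ± 3.46 CPM per kb (SD, n = 4). Neighbours in that order overlapped in their ranges at every step but from Hspb1 to Hspa5. In knockouts Hspb1 came first, at 1070 ± 98.8 CPM per kb, its range overlapping that of Hsp90ab1 (966 ± 70.7), and Hsph1 came last at 22.8 ± 3.48 CPM per kb (SD, n = 4). The transcripts counted by the authors may differ from those whose lengths were used. Of the 10 members, 7 were in the top 10% of tested genes by mean CPM, and the smallest count of any member was 1649 (Hsph1 in control replicate 1), where counting error is 2.46%.

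Of 3 tested genes within 100 kb of Hspb1, 0 were called higher. Ywhag and Mdh2 had log2 fold changes of 0.107 and -0.017 (edgeR adjusted p = 0.5803 and 0.9283). The third, Ssc4d, was scarce and fell, from a mean of 0.6497 CPM in controls to 0.3147 CPM in knockouts (adjusted p = 0.04304). Within the same distance of Hsph1 the 1 tested gene, B3glct, fell (log2 fold change -0.592, adjusted p = 0.04454). Near other members, 3 of 14 tested genes were called for Hspa1a and 2 of 14 for Hspa1b, whose neighbours are partly shared. For Hsp90aa1 it was 1 of 3 and for Hsf1 1 of 8. Calls were 0 of 5 for Hspa5, Hsp90ab1 and Dnajb1 each, 0 of 1 for Hspa8 and 0 of 4 for Hmgb1. Of all tested genes, 8.87% were called in either direction, and these small counts were not tested against that share.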

How the data were processed

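Raw counts per gene symbol, with no normalization, were deposited by the authors for 8 libraries. The submitters' processing notes list TopHat2 2.1.0, Trimmomatic 0.35, SAMtools 0.1.18, FastQC 0.11.4 and mm10 as build, while the counting tool, annotation and strand setting are not given in the sources used here. Lines for reads outside genes (15.7 to 21.75% of all) and ambiguous reads (0.918 to 1.11%) were left out. filterByExpr kept 13016 genes. Genotypes were compared by edgeR's quasi-likelihood test (robust, TMM, no other term) with Benjamini-Hochberg adjustment over all tested genes at a threshold of 0.05 (R 4.3.3, edgeR 4.0.16, limma 3.58.1, DESeq2 1.42.0). SEs come from the F statistic, and log2 CPM use a prior count of 2. Exact permutation tests used the 70 regroupings of 4 against 4, and correlations 576 permutations within genotypes. Promoters came from RefSeq and coordinates and lengths from GENCODE M21. No 2 libraries were identical. All members were named, and of each other list up to 4 called genes in each direction and the 2 most abundant. Cryab was named outside this rule. One gene that this rule names is not reported here. Members and lists were chosen with earlier results of these data known.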

Additional observations from a re-analysis of the deposited data

Results flagged for a closer look

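Hspa1b in control replicate 3 was at 306.6 CPM, apart from the other controls at 155.2 to 173.8 CPM. The gap to the next control took 0.877 of the range of the group, above the critical value of Dixon for 4 samples. Among 22 groups of 4 tested in this way (10 members and Hmgb1 in 2 genotypes) this was the 1 marked, and chance marks about 1 in 20.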

How the results depend on the processing

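Hspb1 stayed higher and past the threshold in all 20 alternatives (log2 fold change 0.557 to 0.749, adjusted p 5.134e-06 to 0.03861), and Hmgb1 stayed lower in all 20. DESeq2 called 2 members higher (Hspb1 and Dnajb1, log2 0.535), and every other alternative called Hspb1 alone. Library totals only moved the median log2 fold change of all genes from -0.022 to -0.129. Of all genes, 563 higher and 591 lower became 1084 and 919 in DESeq2, 955 and 957 under limma-voom with quality weights, 370 and 997 with library totals only, 141 and 242 without the Y-linked libraries, and 200 to 678 and 262 to 569 leaving out 1 library. Other chaperones called higher were 1 with limma-voom, upper-quartile scaling, library totals only, no low-count filter or a Y-linked term, 0 without the Y-linked libraries and 0 to 2 leaving out 1 library. Those called lower were 4 with quality weights or library totals only, 1 without the Y-linked libraries and 1 to 3 leaving out 1 library. HSF1 targets called higher were 2 by DESeq2, or 1 by quality weights. Immediate-early genes called lower were 5 with quality weights and 1 to 3 leaving out 1 library. Sign changes were limited to members that did not pass. Leaving out 1 library, the log2 fold change ran from -0.0102 to 0.158 for Hspa1a, -0.166 to 0.216 for Hspa1b and -0.0805 to 0.0492 for Hsp90ab1. Hspa1a was at -0.0508 with library totals only and -0.0259 summed with Hspa1b. Hspa1b was at 0.174 with quality weights, 0.0193 with a Y-linked term and 0.164 without the Y-linked libraries, where Hspa8 was at 0.0692 and Hsph1 at 0.142. Hsp90ab1 was at 0.00987 with DESeq2, 0.00125 with quality weights, 0.0044 with RLE scaling, 0.00467 with no low-count filter and 0.0215 with a Y-linked term. Hsf1 was at -0.0319 with library totals only. The cause of these changes was not tested. Replicate numbers did not pair the libraries (correlations of same-numbered libraries -0.173, -0.228, -0.0528 and -0.0612). The number of knockout replicate 4 is from its title and differs from that on its deposited counts, so its pairing is in doubt. With the replicate block 375 genes were higher and 348 lower, other chaperones 1 and 1, and immediate-early genes 1 lower, while Hspb1 kept its call (adjusted p = 0.02122). The smallest member count was 1649, where counting error is 2.46%. Near-identical copies and unstated strand use limit Hspa1a and Hspa1b.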
